A study of Arabidopsis thaliana with 10 samples.

Results

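The 56 probe sets that the study listed as glutathione-related were examined on 10 Affymetrix ATH1 arrays of *Arabidopsis thaliana* leaves, out of 22810 probe sets in the table. They are all the entries of 1 block of a supplementary list that the study drew from genes detected in its own samples, taken whatever their values, and they cover 61 gene loci because 5 of the probe sets match a pair of genes. By class they hold 5 phi, 13 tau and 8 other glutathione transferases or proteins with a transferase-like domain, 6 glutathione peroxidases, 3 dehydroascorbate reductases, 2 glutathione reductases, 4 entries for glutathione synthesis and turnover, 1 glutathione-dependent formaldehyde dehydrogenase, 9 glyoxalase I and 5 glyoxalase II entries. The classes were assigned here from the annotation of that list. Loci are given by their Arabidopsis numbers. In the class of other transferases 1 entry, AT2G46080, carries the RefSeq name BPS2, and its place there rests on that list only.

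The wild-type group (3 arrays) was of the Columbia accession. The *oxt6* group (3 arrays) was a recessive T-DNA mutant with the insertion in the first exon of At1g30460, which encodes AtCPSF30, a subunit of the complex that cleaves and polyadenylates pre-mRNA, and the study states that the mutant lacks both proteins of this gene. The complemented group (4 arrays) was *oxt6* carrying a genomic construct for the smaller of the 2 proteins, 2 arrays from each of 2 transformants, lines 5 and 6, so that the *oxt6* insertion was present in these plants too and the larger protein was not restored. All labels give the Columbia background, and all plants were grown in soil for 30 days, each sample being derived from 10 to 15 plants and chosen from a larger number prepared. *oxt6* is 1 insertion line, isolated for tolerance of oxidative stress, and no stress treatment is given for the plants on the arrays.

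Glutathione is a tripeptide thiol that plant cells hold at high concentration. Transferases attach it to reactive or foreign compounds, and the phi and tau classes of this family are largely confined to plants, with many members induced by pathogens, hormones and oxidants. Peroxidases, dehydroascorbate reductase and glutathione reductase belong to the cycles that remove peroxides and regenerate ascorbate and reduced glutathione, and the glyoxalases use glutathione to clear methylglyoxal, a reactive by-product of glycolysis. The comparison of *oxt6* with the wild-type and with the complemented plants asks which transcripts follow the presence of AtCPSF30.

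The values are intensities from the authors' PLIER processing, on a linear scale with a floor of 16, and differences are given in log2 of the intensity plus 1. Of the members, 52 were among the 12453 brightest probe sets that were tested in limma, and 4 of these had a group mean below the dimmest tested mean, an intensity of 44.2, so that they were tested only through brighter groups (GSTU17 in the wild-type and *oxt6*, the GBF4 and PCS2 probe set in the wild-type, GSTU8 and GSTU24 in the complemented plants). The arrays had median intensities of 40.9 to 60.5, and at most 1 member stood at the floor on any array. The arrays were not alike in a measure of RNA integrity and labelling, the log2 excess of the 3' over the 5' control probe sets for actin, GAPDH and ubiquitin. In the wild-type it was 2.18 ± 0.18 (SD, n = 3), and *oxt6* stood at 2.24 ± 1.003 (SD, n = 3). The complemented plants, at 0.039 ± 0.069 (SD, n = 4), lay apart from each of these groups (p = 0.0286 in an exact permutation test, two-sided, as small as a design of 3 against 4 can reach), and *oxt6* replicate 1 stood at 1.09 against 2.88 and 2.75 for the other 2. Results against the complemented plants are therefore given with this signal as a covariate where that ended a call, and the part of RNA integrity in them was not tested separately from the genotype. Only *oxt6* replicate 1 lay between the complemented arrays and the rest, so the signal nearly coincides with the complemented group. A call ended by the covariate can thus come from a wider interval as well as from a smaller difference. RCA, the Rubisco activase and the only leaf marker matched, read 1504, 1569 and 1139.6 in the wild-type, 3351, 712 and 631 in *oxt6*, and 6067 and 6043 in line 5 and 8232 and 7673 in line 6. It too was higher in the complemented plants than in the wild-type, by 2.32, and lower in *oxt6* than in the complemented plants, with a difference of -2.60 (adjusted p = 3.3e-04 and 1.4e-04), and its part in the results against the complemented plants was not tested. Of 2 root markers matched, PYK10, a beta-glucosidase, was higher than the wild-type in *oxt6* by 0.98 (adjusted p = 0.0024) and in the complemented plants by 1.57 (adjusted p = 8.2e-06). EXP7, an expansin of root hairs and too dim for the tested set, read 42.2, 56.9 and 53.0 in the wild-type, 36.7, 48.6 and 29.8 in *oxt6*, and 16.9 and 28.2 in line 5 and 19.7 and 16.0 in line 6, the complemented arrays being the lowest.

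Against the wild-type, *oxt6* leaves held more transcript of 3 of the 6 peroxidases and of 5 tau transferases and less of 4 of the 5 phi transferases. Of the 52 tested members, 16 were higher and 7 lower, or 30.8% and 13.5%, where over all probe sets tested 16.4% were higher and 12.3% lower at an adjusted p under 0.05. The peroxidases had 3 of 6 higher and none lower, the tau class 5 of 11 higher and 1 lower, and the phi class none of 5 higher and 4 lower. Against the complemented plants 10 members were higher and 30 lower in *oxt6*, 19.2% and 57.7%, beside 32.3% and 37.0% over all probe sets. The complemented plants in turn exceeded the wild-type at 32 members and lay below it at 6, 61.5% and 11.5%, beside 38.0% and 33.8%. The median log2 difference of the members was 0.29, -0.68 and 0.69 in these 3 comparisons, and that of all probe sets tested was -0.04, -0.03 and 0.04. With each array shifted to a common median, which moved the median of all probe sets by 0.05, 0.20 and -0.15, the members stood at 18 higher and 5 lower, 14 and 26, and 28 and 9. All probe sets then stood at 19.3% higher and 12.7% lower, 41.9% and 32.5%, and 35.1% and 40.1%, so that in the last 2 comparisons their balance, unlike that of the members, turned round. With the 3'/5' signal as a covariate, all 23 members called between *oxt6* and the wild-type passed in the same direction, whereas the calls against the complemented plants were 2 higher and 9 lower, and between complemented and wild-type plants 17 and 2. The shares of all probe sets with the covariate are not given, here or for the covariate counts below. These falls are therefore not a result about the members in particular. In leaf RNA, fewer cells of a type and less RNA per cell cannot be told apart.

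**Figure D1:**
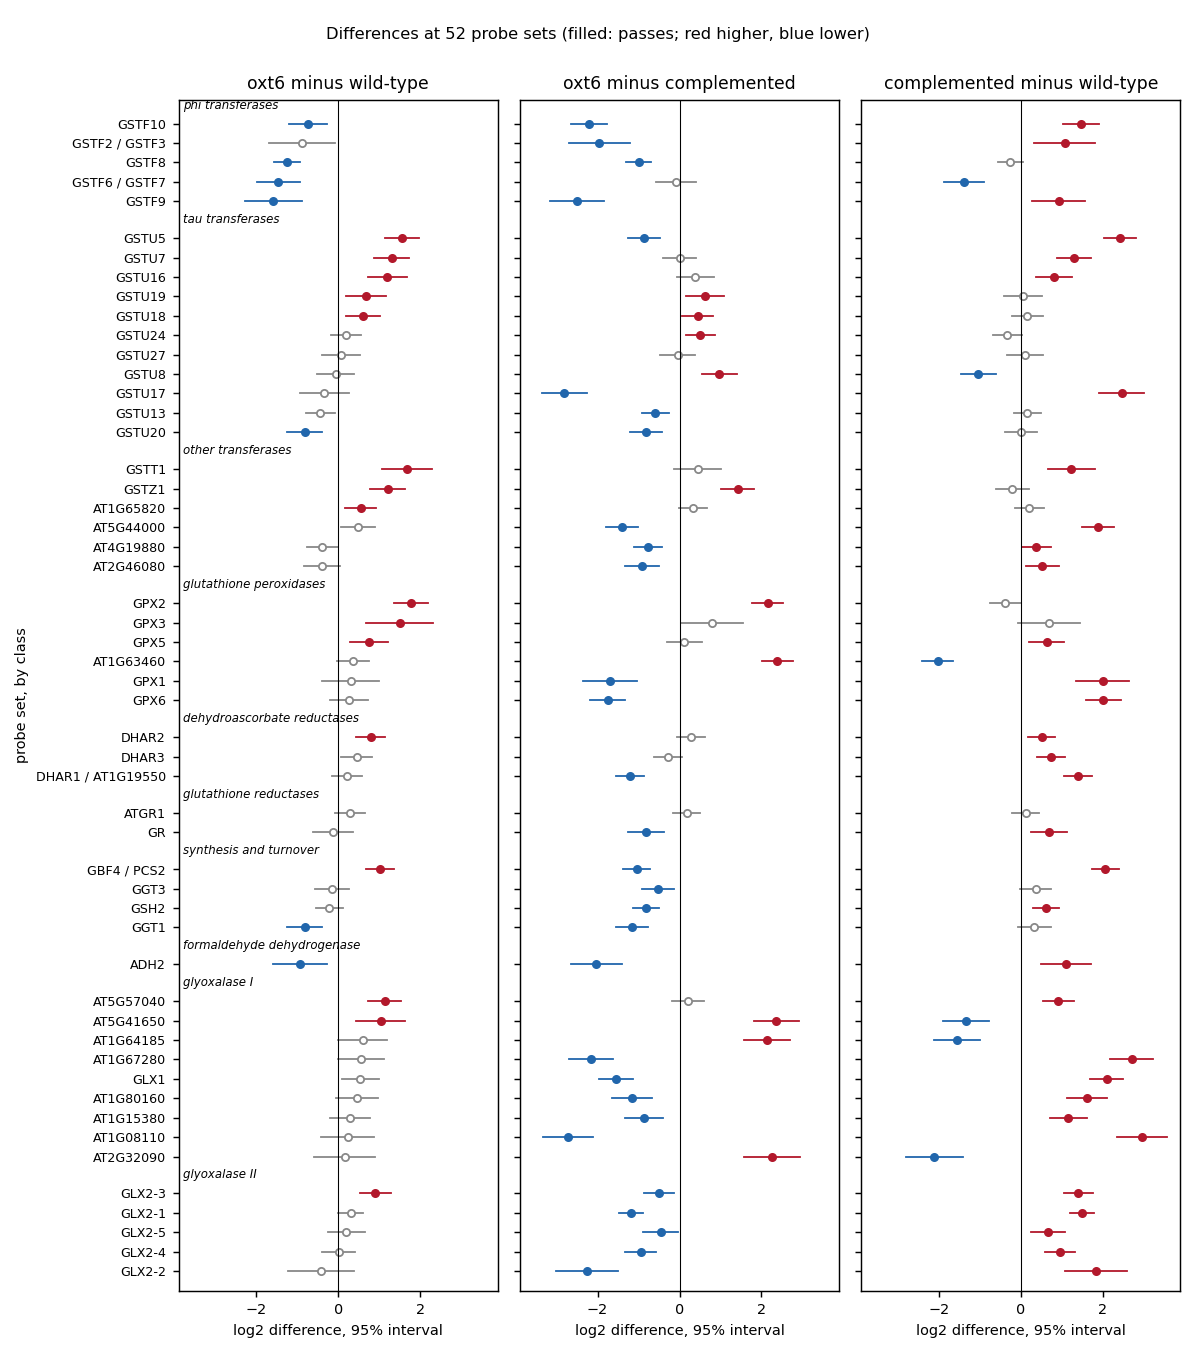
Log2 difference (points) and its 95% interval from limma (lines) at the 52 tested members, grouped by class, in *oxt6* minus wild-type, *oxt6* minus complemented and complemented minus wild-type plants. Filled points pass at an adjusted p under 0.05, red for higher and blue for lower, and the phi transferases lie left of 0 in the first panel while all 6 peroxidases lie right of it.

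GPX2, of the glutathione peroxidase family, whose plant members reduce hydrogen peroxide and lipid peroxides largely with electrons from thioredoxin, stood apart from both other groups on every *oxt6* array. Its intensity was 1005, 809.5 and 617 in the wild-type, 2857, 2722 and 2603 in *oxt6*, and 671 and 609.9 in line 5 and 615 and 563 in line 6 of the complemented plants. The lowest *oxt6* array was above the highest of the other groups. The differences were 1.78 ± 0.19 (SE) against the wild-type and 2.15 ± 0.18 (SE) against the complemented plants (adjusted p = 2.4e-05 and 5.2e-07), or 3.43-fold and 4.44-fold, and both passed under every alternative, the covariate included. The complemented plants differed from the wild-type by -0.37 ± 0.18 (SE), which did not pass (adjusted p = 0.073, 95% interval -0.75 to 0.01). That difference did pass with median scaling, quantile normalization, array weights or the replicate number as a block, and without wild-type replicate 3.

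GPX3, known as a link between hydrogen peroxide and abscisic acid signalling, was also higher in *oxt6* than in wild-type leaves. It read 386, 397 and 394 in *oxt6* against 192, 236 and 58.3 in the wild-type, whose replicate 3 was far below the other 2, and 228 and 252 in line 5 and 212 and 212 in line 6. The *oxt6* arrays did not overlap the others, and the difference from the wild-type was 1.496 ± 0.37 (SE) (adjusted p = 0.009), while that from the complemented plants, 0.80 ± 0.35 (SE), did not pass (adjusted p = 0.057). Without wild-type replicate 3 the difference from the wild-type was 0.88. The methods' t-test did not call the difference from the wild-type (adjusted p = 0.2). It did call that from the complemented plants, which also passed with median scaling, with an offset of 16 and without wild-type replicate 3. GPX5 was higher in *oxt6* by 0.75 ± 0.21 (SE) (adjusted p = 0.018) and higher in the complemented plants by 0.63 ± 0.20 (SE) (adjusted p = 0.011), both relative to the wild-type. Both calls ended without wild-type replicate 3, and the first also without *oxt6* replicate 2 or 3. The second ended with the covariate too, where the difference was larger, at 1.03 (adjusted p = 0.065).

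The 3 other peroxidases did not pass between *oxt6* and the wild-type and set the complemented plants apart. GPX1, a chloroplast enzyme, read 665, 786 and 448 in the wild-type, 1109, 638 and 626 in *oxt6*, and 2984 and 1422 in line 5 and 2868 and 3076 in line 6. GPX6 read 586, 653 and 433 in the wild-type, 848, 596 and 566 in *oxt6*, and 2002 and 2066 in line 5 and 2542 and 2345 in line 6. Both were above the wild-type in the complemented plants, by 2.003 and 2.02 (adjusted p = 5.5e-05 and 2.0e-06), and *oxt6* replicate 1 was the highest of the *oxt6* arrays for each. AT1G63460, named GPX8 in RefSeq, went the other way, with 495, 559.9 and 447 in the wild-type, 520.4, 756 and 670.0 in *oxt6*, and 119 and 138 in line 5 and 122 and 108 in line 6. It was lower in the complemented plants than in the wild-type by 2.03 ± 0.17 (SE) and *oxt6* exceeded them by 2.39 ± 0.17 (SE) (adjusted p = 8.4e-07 and 2.0e-07), and these calls held with the covariate. The 3'/5' signal as a covariate ended the calls of GPX1 in both comparisons and of GPX6 against *oxt6* (adjusted p = 0.53, 0.25 and 0.053).

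**Figure D2:**
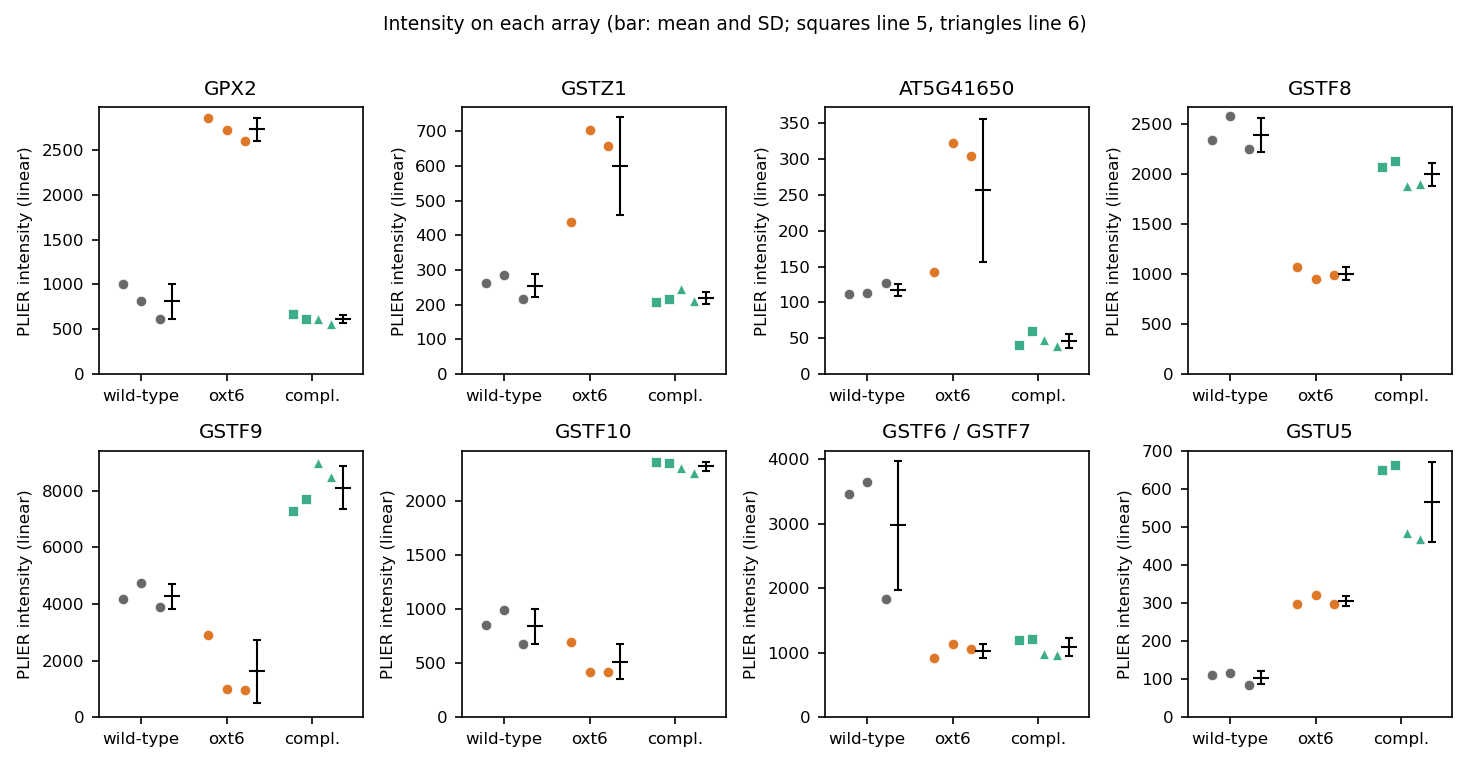
PLIER intensity (linear, from 0) on each array for GPX2, GSTZ1, AT5G41650, GSTF8, GSTF9, GSTF10, GSTF6/GSTF7 and GSTU5 in wild-type, *oxt6* and complemented plants. Points are arrays (squares line 5, triangles line 6) and bars are means with SD, and *oxt6* replicate 1, the leftmost *oxt6* point, lies away from the other 2 at GSTZ1, AT5G41650, GSTF9 and GSTF10 but not at GPX2 or GSTF8.

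Among the phi transferases every tested entry lay lower in *oxt6* than in wild-type leaves in the mean, and 4 of 5 passed. GSTF8, which has cytosolic and chloroplast forms and whose promoter is a standard reporter of oxidant and salicylate responses, read 2345, 2587 and 2249 in the wild-type, 1073, 949.6 and 993 in *oxt6*, and 2069 and 2129 in line 5 and 1887 and 1908 in line 6 of the complemented plants. Every *oxt6* array was below every other array. The differences were -1.25 ± 0.15 (SE) against the wild-type and -0.99 ± 0.14 (SE) against the complemented plants (adjusted p = 6.5e-05 and 3.9e-05), and both passed under every alternative. The complemented and wild-type plants differed by -0.26 ± 0.14 (SE) (adjusted p = 0.12), and their arrays did not overlap. That difference passed with median scaling, with array weights and in the methods' t-test after adjustment.

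GSTF9 and GSTF10 are neighbouring genes by locus number, AT2G30860 and AT2G30870, and the product of the second binds the receptor kinase BAK1. GSTF9 read 4166, 4746 and 3892 in the wild-type, 2919, 1018 and 959 in *oxt6*, and 7276 and 7699.6 in line 5 and 8987 and 8479 in line 6. GSTF10 read 853, 992 and 675 in the wild-type, 698, 423 and 415 in *oxt6*, and 2355 and 2347 in line 5 and 2306 and 2257 in line 6. *oxt6* replicate 1 lay between the other 2 *oxt6* arrays and the wild-type for GSTF9 and within the wild-type range for GSTF10, and for both genes the complemented arrays exceeded all others. Against the wild-type GSTF9 was lower by 1.58 ± 0.32 (SE) and GSTF10 by 0.74 ± 0.22 (SE) (adjusted p = 0.0027 and 0.022), and against the complemented plants by 2.51 ± 0.30 (SE) and 2.22 ± 0.20 (SE) (adjusted p = 9.9e-06 and 1.2e-06). The methods' t-test did not call either against the wild-type, and the GSTF10 call was also lost without *oxt6* replicate 2 or 3 or without wild-type replicate 1 or 2. With the covariate the call of GSTF9 against the complemented plants ended, at -0.53 (adjusted p = 0.13), and its difference between complemented and wild-type plants turned from 0.93, which was not called without wild-type replicate 3, to -0.999 (adjusted p = 0.012).

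The probe set shared by GSTF6 and GSTF7 was the only member lower than the wild-type in both other groups. It read 3463, 3643 and 1831 in the wild-type, 917, 1132 and 1053 in *oxt6*, and 1198 and 1222 in line 5 and 976 and 969.6 in line 6. Each *oxt6* and complemented array was below each wild-type array, by 1.47 ± 0.24 (SE) and 1.39 ± 0.23 (SE) in the mean (adjusted p = 5.9e-04 and 1.1e-04), and the 2 groups differed from each other by -0.07 ± 0.23 (SE) (95% interval -0.56 to 0.41). The methods' t-test did not call the first difference, and the covariate ended the call of the second, at -1.24 (adjusted p = 0.068). Over all probe sets 3.83% were lower than the wild-type in both without a call between the 2 groups. GSTF6 takes part in the synthesis of camalexin, an antimicrobial compound, and both genes are known to respond to salicylate. The salicylate markers PR1, PR2 and PR5 were all 3 lower in *oxt6* and in the complemented plants than in the wild-type. Unlike the GSTF6 and GSTF7 probe set, PR2 and PR5 also differed between *oxt6* and the complemented plants. Both were lower in *oxt6*, with differences of -1.63 and -0.96 (adjusted p = 3.7e-05 and 0.0077 in limma), while PR1 did not pass there. PR5 was also higher in line 6 than in line 5, by 1.07 (adjusted p = 0.012). PR1 read 442, 508 and 360.5 in the wild-type, 35.9, 43.3 and 32.6 in *oxt6*, and 28.1 and 27.0 in line 5 and 39.7 and 32.7 in line 6, and their part in the GSTF6 and GSTF7 result was not tested.

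The probe set shared by GSTF2 and GSTF3, the first of which binds auxin and camalexin, did not pass against the wild-type (-0.88, adjusted p = 0.095). It read 2376, 2383 and 1516 in the wild-type, 1508, 981 and 928 in *oxt6*, and 4826 and 1963 in line 5 and 6048 and 6027 in line 6. It was lower in *oxt6* than in the complemented plants by 1.95 ± 0.35 (SE) (adjusted p = 2.4e-04), and line 5 replicate 2 was low within its group. The covariate ended that call (adjusted p = 0.36).

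The tau transferases did not move as 1 block. Against the wild-type GSTU5, GSTU7, GSTU16, GSTU18 and GSTU19 were higher in *oxt6*, GSTU20 was lower, and GSTU8, GSTU13, GSTU17, GSTU24 and GSTU27 did not pass. The class median was 0.18, with a range of -0.82 to 1.55. Against the complemented plants 4 were higher and 4 lower, GSTU17 among the lower.

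GSTU1, GSTU4, GSTU5 and GSTU7 lie close together on the chromosome by locus number (AT2G29490, AT2G29460, AT2G29450 and AT2G29420). GSTU5, first known as an auxin-induced transferase, read 112, 117 and 84.8 in the wild-type, 299, 322 and 297 in *oxt6*, and 651 and 663 in line 5 and 483 and 468 in line 6. The 3 groups did not overlap, in the order wild-type, *oxt6*, complemented. It was higher in *oxt6* than in wild-type leaves by 1.55 ± 0.20 (SE) and lower than in the complemented plants by 0.87 ± 0.18 (SE) (adjusted p = 8.9e-05 and 8.8e-04), which with the covariate was -0.90 (adjusted p = 0.11). GSTU7 read 142, 119.6 and 169 in the wild-type, 383, 351 and 324 in *oxt6*, and 288 and 301 in line 5 and 414 and 421 in line 6, and *oxt6* and the complemented plants exceeded the wild-type by the same 1.30 (adjusted p = 3.8e-04 and 4.4e-05). GSTU1 was too dim to be tested among the brightest probe sets and read 16.0, 20.1 and 22.7 in the wild-type, 44.1, 73.2 and 59.6 in *oxt6*, and 36.3 and 44.1 in line 5 and 53.9 and 50.3 in line 6. Its arrays of *oxt6* and of the complemented plants were all above the wild-type, which stood at or near the floor. GSTU4, likewise dim, read 45.6, 28.1 and 29.6 in the wild-type, 44.3, 75.8 and 67.7 in *oxt6*, and 33.1 and 40.9 in line 5 and 47.5 and 49.4 in line 6, and its groups overlapped.

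GSTU19 and GSTU20 are adjacent by locus number, AT1G78380 and AT1G78370, and moved in opposite directions in *oxt6*. GSTU19 read 2919, 2901 and 1695 in the wild-type, 4585, 3854 and 3311 in *oxt6*, and 2151 and 2259.5 in line 5 and 2937 and 2844 in line 6. All *oxt6* arrays were above all others, by 0.68 ± 0.23 (SE) and 0.62 ± 0.21 (SE) against the 2 groups (adjusted p = 0.042 and 0.02). Wild-type replicate 3 was low, and without it the difference from the wild-type was 0.42 (adjusted p = 0.17). The call against the wild-type was also lost without *oxt6* replicate 1 or 2. That against the complemented plants was lost without *oxt6* replicate 1 or line 5 replicate 1. It also ended with the covariate, where the difference was larger, at 1.24 (adjusted p = 0.052). GSTU20, known to bind the jasmonate-conjugating enzyme FIN219, read 98.7, 98.2 and 131 in the wild-type, 69.6, 50.3 and 64.4 in *oxt6*, and 89.5 and 105 in line 5 and 134 and 110.2 in line 6. All *oxt6* arrays were below all others, by 0.82 ± 0.20 (SE) and 0.82 ± 0.18 (SE) (adjusted p = 0.0067 and 0.0013). The methods' t-test did not call the first difference (adjusted p = 0.076), and the covariate ended the second call (adjusted p = 0.35).

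GSTU17 and GSTU18, AT1G10370 and AT1G10360, also differed from each other. GSTU17, studied for its part in light and drought responses, read 20.8, 21.7 and 43.5 in the wild-type, 16.0, 27.0 and 21.8 in *oxt6*, and 133 and 145 in line 5 and 177 and 166 in line 6. The complemented arrays were above all others, and as the other 2 groups were near the floor no size of the difference is given. GSTU18 read 169, 176 and 245 in the wild-type, 283, 328 and 276 in *oxt6*, and 179.6 and 234 in line 5 and 222 and 237 in line 6, with *oxt6* above every other array. Its differences of 0.60 ± 0.19 (SE) from the wild-type and 0.44 ± 0.18 (SE) from the complemented plants (adjusted p = 0.03 and 0.04) were each lost without *oxt6* replicate 2 or 3, the first also without wild-type replicate 1 or 2, and the second also without line 5 replicate 1 or line 6 replicate 1 and with the covariate (adjusted p = 0.64).

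**Figure D3:**
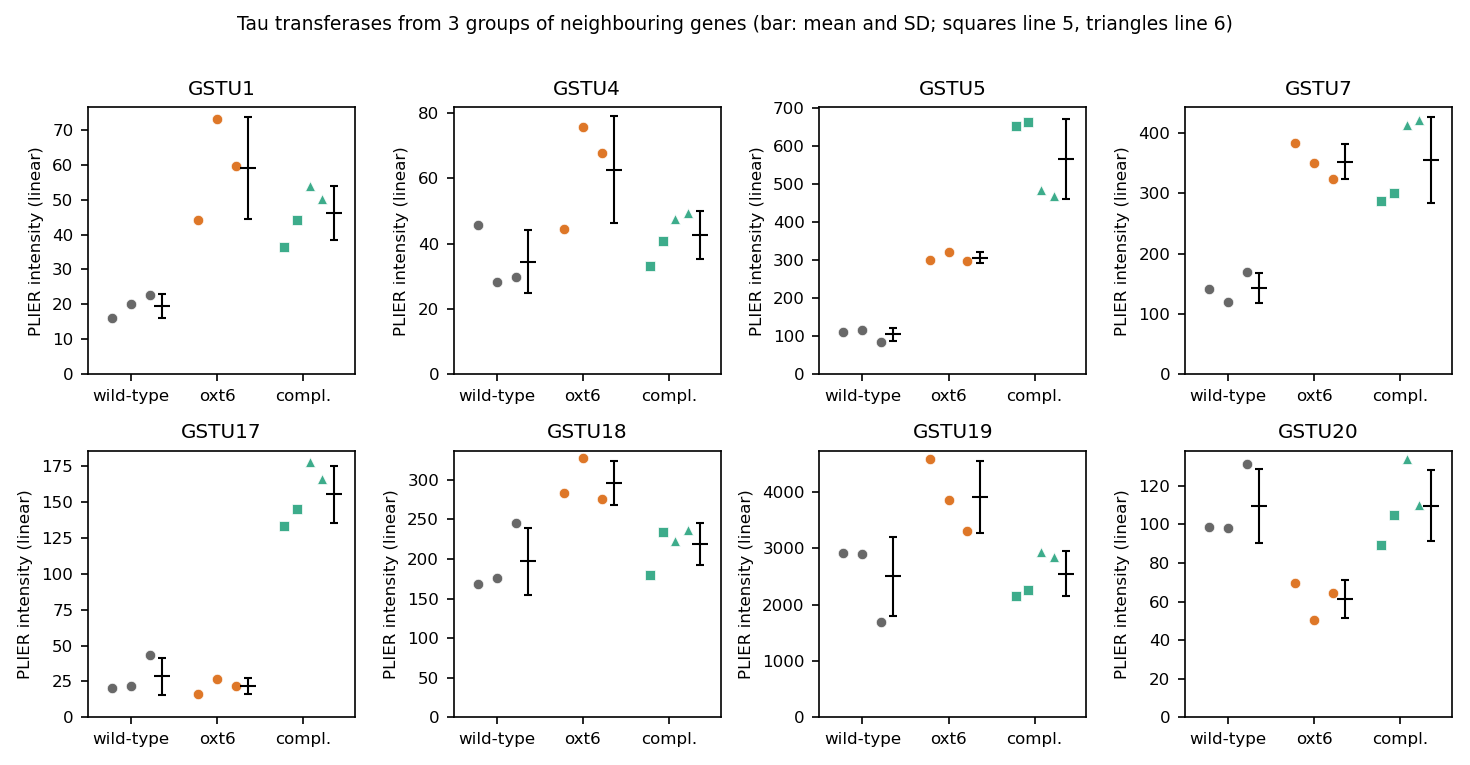
PLIER intensity (linear, from 0) on each array for GSTU1, GSTU4, GSTU5 and GSTU7, GSTU17 and GSTU18, and GSTU19 and GSTU20, which are near each other by locus number within each set. Points are arrays (squares line 5, triangles line 6) and bars are means with SD, and the *oxt6* arrays lie above the others for GSTU18 and GSTU19 and below them for GSTU20.

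Of the remaining tau members, GSTU16 was higher in *oxt6* and in the complemented plants than in the wild-type, by 1.19 ± 0.22 (SE) and 0.81 ± 0.21 (SE) (adjusted p = 0.0013 and 0.0033), the second lost with line 5 alone. GSTU8 read 38.5 and 39.5 in line 5 and 43.3 and 41.7 in line 6, below every array of the other groups, at 57.5 to 106, and was lower in the complemented plants than in the wild-type by 1.03 ± 0.20 (SE) (adjusted p = 3.7e-04; with the covariate -0.23, adjusted p = 0.6). GSTU13 was lower and GSTU24 higher in *oxt6* than in the complemented plants, by 0.59 ± 0.15 (SE) and 0.51 ± 0.16 (SE) (adjusted p = 0.0037 and 0.012), the second lost with either line alone. Both calls ended with the covariate, at -0.44 and 0.55 (adjusted p = 0.28 and 0.23). GSTU27 passed in no comparison, with intervals from -0.47 to 0.53.

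Of the 6 tested entries in the class of other transferases, GSTT1, GSTZ1 and AT1G65820 were higher in *oxt6* than in wild-type leaves and none was lower. GSTZ1, an isomerase of tyrosine breakdown, read 264, 284 and 218 in the wild-type, 437, 703 and 657 in *oxt6*, and 207 and 215 in line 5 and 245 and 211 in line 6. Every *oxt6* array exceeded every other, with replicate 1 the nearest to them. The differences were 1.21 ± 0.20 (SE) and 1.42 ± 0.19 (SE) (adjusted p = 6.2e-04 and 2.1e-05), and with the covariate the second was 0.73 (adjusted p = 0.12). GSTT1, a theta-class transferase of the peroxisome, read 156, 213 and 77.4 in the wild-type, 431, 465 and 428 in *oxt6*, and 283 and 304 in line 5 and 378 and 335 in line 6. It was higher than the wild-type in *oxt6* by 1.68 ± 0.29 (SE) and in the complemented plants by 1.23 ± 0.27 (SE) (adjusted p = 7.3e-04 and 0.001), with wild-type replicate 3 the lowest array, and without that array the first difference was 1.27. At its threshold of 0.01, unadjusted, the methods' t-test called neither difference, and the covariate ended the call of the second, at 0.99 (adjusted p = 0.2). AT1G65820, a microsomal transferase, was higher in *oxt6* than in wild-type leaves by 0.54 ± 0.17 (SE) (adjusted p = 0.032), a call lost without wild-type replicate 1 or 2 or *oxt6* replicate 2 or 3.

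AT5G44000, AT4G19880 and AT2G46080 did not pass against the wild-type in *oxt6* and were higher in the complemented plants than in both other groups. AT5G44000 read 51.7, 43.3 and 69.8 in the wild-type, 83.7, 71.2 and 72.7 in *oxt6*, and 168 and 189.9 in line 5 and 234 and 224 in line 6, and exceeded the wild-type in the complemented plants by 1.89 ± 0.18 (SE) (adjusted p = 2.0e-06). The smaller differences of AT4G19880 and AT2G46080 from the wild-type there, 0.38 and 0.52, were lost or turned under 16 and 8 of 24 alternatives, the covariate among them. The dim AT5G45020 read 19.3, 16.4 and 23.3 in the wild-type, 19.2, 25.2 and 22.7 in *oxt6*, and 57.2 and 59.5 in line 5 and 78.1 and 61.3 in line 6, also with the complemented arrays above all others. The dim probe set of GSTT2 and GSTT3 read 22.7, 20.6 and 39.9 in the wild-type, 23.3, 44.1 and 29.9 in *oxt6*, and 43.0 and 46.8 in line 5 and 61.2 and 54.5 in line 6, with *oxt6* overlapping both other groups and the complemented arrays above the wild-type.

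Of the enzymes that regenerate ascorbate and glutathione, DHAR2 was the only one to pass between *oxt6* and the wild-type. It read 107, 80.8 and 96.0 in the wild-type, 177, 157 and 156 in *oxt6*, and 121 and 123 in line 5 and 156 and 139.8 in line 6, a difference of 0.79 ± 0.17 (SE) in *oxt6* (adjusted p = 0.0034). The probe set of DHAR1 and AT1G19550 read 1555, 1671 and 1219 in the wild-type, 1926, 1672 and 1505 in *oxt6*, and 3688 and 4009 in line 5 and 3904 and 3952 in line 6, and the complemented plants exceeded the wild-type by 1.40 ± 0.16 (SE) (adjusted p = 5.8e-06). DHAR3, of the chloroplast, exceeded the wild-type in the complemented plants by 0.73 ± 0.16 (SE) (adjusted p = 0.0011). ATGR1 (GR1 in RefSeq), the cytosolic glutathione reductase, passed in no comparison, with differences of 0.12 to 0.29. GR, the reductase of chloroplast and mitochondria, read 154, 160.0 and 129 in the wild-type, 166, 136 and 107 in *oxt6*, and 186 and 202 in line 5 and 296 and 286 in line 6, and was lower in *oxt6* than in the complemented plants by 0.82 ± 0.21 (SE) (adjusted p = 0.0033), a call lost with line 5 alone and with the covariate (adjusted p = 0.78).

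GSH2, glutathione synthetase, lay within -0.55 to 0.12 of the wild-type in *oxt6* (95% interval) and was lower there than in the complemented plants by 0.83 ± 0.15 (SE) (adjusted p = 2.3e-04; with the covariate adjusted p = 0.14). GGT1, a gamma-glutamyl transferase that breaks down glutathione outside the cell, read 315, 365 and 302 in the wild-type, 177, 215 and 164 in *oxt6*, and 423 and 523 in line 5 and 395 and 328 in line 6. It was lower in *oxt6* than in both groups without overlap, by 0.82 ± 0.20 (SE) and 1.15 ± 0.18 (SE) (adjusted p = 0.0069 and 9.3e-05), and both calls held under every alternative. GGT3 of the list, AT4G29210, is GGT4 in RefSeq, the vacuolar member of that family, and passed only against the complemented plants, where *oxt6* was lower by 0.52 ± 0.18 (SE) (adjusted p = 0.018), a call lost without *oxt6* replicate 3 or line 6 replicate 1 and with the covariate (adjusted p = 0.7). The probe set listed for both the transcription factor GBF4 and PCS2, a phytochelatin synthase, read 40.6, 36.6 and 39.4 in the wild-type, 96.3, 77.5 and 68.3 in *oxt6*, and 154 and 169.7 in line 5 and 172 and 169 in line 6. The 3 groups did not overlap, in the order wild-type, *oxt6*, complemented. The steps were 1.02 ± 0.16 (SE) and 1.05 (adjusted p = 4.1e-04 and 4.1e-05), and the second did not pass with the covariate (adjusted p = 0.13). This probe set was tested only through its brighter *oxt6* and complemented arrays, so the filter favoured a call against the wild-type.

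ADH2, named HOT5 in RefSeq, is the formaldehyde dehydrogenase that also reduces S-nitrosoglutathione, the store of nitric oxide bound to glutathione. It read 525, 469 and 494 in the wild-type, 469.5, 217 and 170.3 in *oxt6*, and 939.5 and 848 in line 5 and 1296 and 1246 in line 6. *oxt6* replicate 1 lay within the range of the wild-type arrays, and the other 2 lay below it. The difference from the wild-type was -0.93 ± 0.31 (SE) (adjusted p = 0.037), a call lost without any 1 of the wild-type arrays and without *oxt6* replicate 2 or 3, and it was -1.36 without replicate 1. Against the complemented plants it was -2.04 ± 0.29 (SE) (adjusted p = 3.5e-05), and with the covariate -0.46 (adjusted p = 0.4).

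Of the 14 tested glyoxalase entries 3 were higher and none lower in *oxt6* than in wild-type leaves, where 28.7% of all probe sets passed in either direction. All 14 passed between complemented and wild-type plants, 11 higher and 3 lower, beside 71.8% of all probe sets, and 8 passed the same way with the covariate. The entries of the glyoxalase I class fell in 2 sets. AT1G08110, AT1G15380, AT1G67280, AT1G80160, GLX1 and AT5G57040 were higher in the complemented plants than in the wild-type, by 0.92 to 2.96, and AT5G41650, AT1G64185 and AT2G32090 were lower, by 1.34 to 2.11. With the covariate 5 of the 6 higher calls held, without AT1G15380 (adjusted p = 0.21), and none of the 3 lower calls did (AT5G41650 0.07, AT1G64185 -0.06 and AT2G32090 -1.77, adjusted p = 0.89, 0.9 and 0.073).

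AT1G08110 carried the largest difference of all tested members. It read 173, 224 and 182 in the wild-type, 425, 162 and 167 in *oxt6*, and 1312 and 1572 in line 5 and 1607 and 1513 in line 6. The complemented plants exceeded the wild-type by 2.96 ± 0.28 (SE) and *oxt6* by 2.72 (adjusted p = 1.7e-06 and 3.0e-06), and both calls held with the covariate, at 1.27 and -0.99. *oxt6* replicate 1, at 425, lay above the wild-type arrays, and the other 2 lay just below the lowest of them.

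AT5G41650 was the reverse. It read 112, 113 and 127 in the wild-type, 142, 323 and 305 in *oxt6*, and 40.3 and 60.1 in line 5 and 47.0 and 38.7 in line 6. Every *oxt6* array was above every wild-type array, and every complemented array below it. *oxt6* exceeded the wild-type by 1.03 ± 0.27 (SE) and the complemented plants by 2.37 ± 0.26 (SE) (adjusted p = 0.013 and 4.2e-06), and replicate 1 again stood on the side of the complemented plants, at 142. The first call was lost without *oxt6* replicate 2 or 3 and by the methods' t-test, and the second with the covariate, at 0.93 (adjusted p = 0.064). AT5G57040 read 354, 270.4 and 229 in the wild-type, 554, 663 and 628 in *oxt6*, and 459 and 528 in line 5 and 563 and 579.7 in line 6, and was higher than the wild-type in *oxt6* by 1.13 ± 0.19 (SE) and in the complemented plants by 0.92 ± 0.18 (SE) (adjusted p = 7.0e-04 and 4.4e-04), calls that held under every alternative.

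The 5 glyoxalase II entries were all higher in the complemented plants than in the wild-type, by 0.66 to 1.84, and all lower in *oxt6* than in the complemented plants, where the call of GLX2-5 (-0.46, adjusted p = 0.048) was lost under 19 of 24 alternatives. With the covariate GLX2-2, the 1.84, turned to -0.37 against the wild-type (adjusted p = 0.34) and GLX2-5 did not pass (adjusted p = 0.28), which left 3 of 5 calls there and 2 of 5 against *oxt6*. GLX2-3, known as the sulfur dioxygenase ETHE1, was also higher in *oxt6* than in wild-type leaves. It read 523, 639.9 and 433 in the wild-type, 1077, 1006 and 878 in *oxt6*, and 1419 and 1476 in line 5 and 1348 and 1341 in line 6, with no overlap of the 3 groups, and the differences of *oxt6* were 0.90 ± 0.18 (SE) and -0.50 ± 0.17 (SE) (adjusted p = 0.0021 and 0.016). The second was lost without *oxt6* replicate 3, with line 6 alone and with the covariate (adjusted p = 0.7). It was also lost with median scaling and with the replicate number as a block (adjusted p = 0.16 and 0.069). GLX2-2, the cytosolic enzyme, read 286, 327 and 282 in the wild-type, 524, 158 and 133 in *oxt6*, and 1026 and 1095 in line 5 and 1088 and 1075 in line 6, with *oxt6* replicate 1 above the wild-type and the other 2 below it. Its difference of -2.26 ± 0.35 (SE) from the complemented plants (adjusted p = 7.5e-05) was 0.01 with the covariate (adjusted p = 0.98).

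Read over all classes, the commonest pattern set the complemented plants apart. At 19 of 52 members, 36.5%, the complemented plants exceeded both other groups, which did not pass against each other, beside 25.6% of all probe sets, and 9 of the 19 were glyoxalases. Both calls held with the covariate at 5 of the 19, AT1G08110, GLX2-1, GLX2-4, AT5G44000 and GSTU17. GSTU17 was tested only through its brighter complemented arrays, so the filter favoured its place in this pattern. The opposite pattern, complemented plants alone low, was found at 4 members, 7.69% beside 18.4%, namely AT1G63460, AT1G64185, AT2G32090 and GSTU8, of which only AT1G63460 kept both calls with the covariate. GSTU8 was likewise tested only through its brighter wild-type and *oxt6* arrays. A further 6 members were higher than the wild-type in both *oxt6* and complemented plants with no call between these, 11.5% beside 3.36%. *oxt6* lay between the other groups, passing against each in opposite directions, at GSTU5, GLX2-3 and the GBF4 and PCS2 probe set, 3 of 52 beside 6.12% of all probe sets. The GBF4 and PCS2 probe set was tested only through its brighter *oxt6* and complemented arrays, so the filter favoured its place here too. Only ATGR1 and GSTU27 passed in no comparison, beside 15.9%. *oxt6* replicate 1 was the *oxt6* array nearest to the complemented mean at 34 of the 52 members (65.4%), beside 57.2% of all probe sets, and it was also the *oxt6* array nearest to the complemented plants in the 3'/5' signal.

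**Figure D4:**
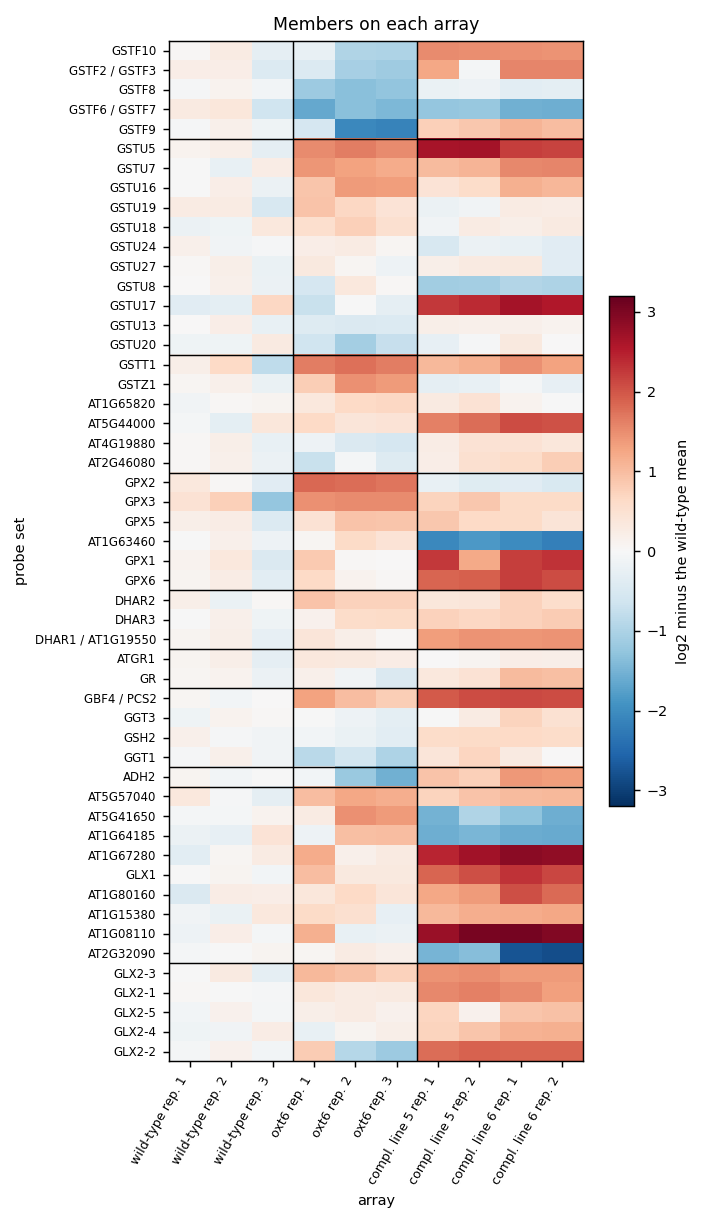
Log2 intensity of each tested member on each of the 10 arrays minus the wild-type mean, with classes separated by horizontal lines and groups by vertical lines. Red is above and blue below the wild-type mean. Complemented and wild-type plants passed against each other at 73.1% of these members, beside 71.8% of all probe sets tested. The first *oxt6* array lies nearer to the complemented mean than the other 2 at 34 of 52 members, 65.4% beside 57.2% of all probe sets tested.

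The term AtCPSF30-dependent was given to a probe set that differed at least 2-fold between *oxt6* and the wild-type and passed, that also passed in the same direction between *oxt6* and complemented plants, and for which the complemented plants were either within 2-fold of the wild-type or changed beyond it away from *oxt6*. There were 5 such members, GPX2, GSTZ1 and AT5G41650 higher and GSTF8 and GSTF9 lower, 5.77% and 3.85% of the tested members beside 5.04% and 1.85% of all probe sets. In the 4 that lay within 2-fold between complemented and wild-type plants, that difference ran from -0.37 to 0.93. AT5G41650 was below the wild-type in the complemented plants by 1.34 ± 0.26 (SE), which with the covariate was 0.07 (adjusted p = 0.89). GPX2 and GSTF8 met the rule under every alternative. AT5G41650 dropped out without *oxt6* replicate 2 or 3, at an adjusted p under 0.01, by the methods' t-test and with the covariate. It also dropped out with an offset of 16, where GPX3 met the rule instead. Without *oxt6* replicate 1 there were 8, with ADH2, GLX2-2 and GSTU16 added, with array weights 12, and with the covariate or with the methods' t-test after adjustment 2, GPX2 and GSTF8 each time.

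The 2 complemented lines differed at 1 member, AT2G32090, of the glyoxalase I class, beside 1.06% of all probe sets higher and 3.2% lower in line 6. It read 1428 and 1536 in line 5 and 589.8 and 551 in line 6, against 3789, 3929 and 4215 in the wild-type and 4126, 4727 and 4418 in *oxt6*, so that line 6 was below line 5 by a log2 of 1.38 (adjusted p = 1.2e-04) and both were below the other groups. The median size of the difference between lines was 0.24 over the tested members.

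Of 46 other genes of glutathione metabolism and its supply and transport listed by hand, 11 matched a probe set in the annotation used here and 2 were bright enough to test. GSTL3, a lambda transferase, followed the commonest pattern, with 336, 472 and 282 in the wild-type, 557, 444 and 455 in *oxt6*, and 1153 and 1352 in line 5 and 1406 and 1232 in line 6, and was lower in *oxt6* than in the complemented plants, with a difference of -1.41 (adjusted p = 2.4e-05). SIR, sulfite reductase, passed in no comparison. The other 9, all phi or tau transferases, stayed at or below 99.8 on every array. Among them GSTU22, GSTU23, GSTU25 and GSTU28 were lower on every complemented array than on every other array, the opposite of the commonest pattern, and near the floor there. GSTU21 was higher on every complemented array than on every wild-type array. For the rest the complemented and wild-type arrays overlapped.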

How the data were processed

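RNA from leaves was labelled and hybridized to ATH1 arrays, and the authors processed the scans in ArrayAssist with PLIER, whose version is not given in the sources used here. The deposited values are linear intensities with a floor of 16, already corrected and scaled, so a probe set near the floor gives no usable ratio. After removal of 64 control probe sets, log2 of the intensity plus 1 was fitted in limma 3.58.1 (R 4.3.3) for the brightest 12453 probe sets by mean, as many as the total set of the study holds, with 1 mean per group over all 10 arrays and a trend in the variance. The Benjamini-Hochberg adjustment ran over all of these, with a threshold of 0.05. The number of arrays limits the precision. In data simulated with independent normal noise, 200 of 12453 probe sets were changed in *oxt6* against the wild-type. There limma recovered 120 of 200 changed by a log2 of 1, with 11 false calls. It recovered 197 of 200 changed by a log2 of 2, with 6 false calls. Far fewer probe sets were changed there than passed in the data, so the recovery need not hold for these comparisons. Alternatives were the methods' t-test, other scalings, filters, thresholds and offsets, fits on fewer groups, the replicate number as a block, each complemented line alone, array weights, the 3'/5' signal as a covariate, and leaving out each array.

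The labels call the samples biological replicates. A probe set that matches a pair of loci was not assigned to either. The platform annotation named 20 of the 56 members and the study's own list named all. Members and gene lists were chosen with earlier results of these data known. By rule the text names the AtCPSF30-dependent members, the largest change of each class in each comparison, members changed in opposite directions, GPX2, GSTF9, neighbouring genes, the only tested member of a class and untested members. The others it names were chosen after their values were seen. Detection calls and sequences were not used here. Figures were drawn with matplotlib 3.10.9.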

Additional observations from a re-analysis of the deposited data

Results flagged for a closer look

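GPX1 in the complemented plants had 1 of 4 arrays far from the rest. Line 5 replicate 2 read 1422 where the other 3 read 2868 to 3076, and this gap took up 0.874 of the whole range, above Dixon's critical ratio for 4 arrays. It was the only such array in the complemented plants among the 56 members examined, and chance alone gives such a gap in about 1 of 20 groups. The ratio is that for 4 arrays, so the wild-type and *oxt6* groups were not examined in this way. Single arrays of those groups also stood apart at some members, as given above. AT2G32090 differed between the 2 complemented lines, by a log2 of -1.38 in line 6 minus line 5 (adjusted p = 1.2e-04 in limma), with both arrays of line 6, at 589.8 and 551, below both of line 5, at 1428 and 1536.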

How the results depend on the processing

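Of the 101 differences that passed, 37 passed in the same direction under every alternative in which they were tested, among them GPX2, GSTF8 and GGT1 in *oxt6* against both groups, and 67 did so under every one but the 3'/5' covariate. Of the 55 that did not pass, 29 passed under at least 1 alternative, 24 of them with array weights. With the covariate, members higher in *oxt6* than in complemented plants went from 10 to 2 and lower ones from 30 to 9, members higher in complemented than in wild-type plants from 32 to 17 and lower ones from 6 to 2, and AtCPSF30-dependent members from 5 to 2. The covariate turned the complemented minus wild-type difference of ADH2 to -0.437, of AT4G19880 to -0.0866, of AT5G41650 to 0.0654, of GLX2-2 to -0.374 and of GSTF9 to -0.999, and the *oxt6* minus complemented difference of GLX2-2 to 0.0141. Only the GSTF9 value passed among these, and no other called difference changed sign under the alternatives run. The methods' t-test after adjustment gave 8 members higher in *oxt6* than in wild-type leaves in place of 16, 2 lower in place of 7 and 2 dependent members, and at an unadjusted p under 0.01 it gave 2 lower and 3 dependent members. Array weights, whose estimation stopped before reaching its tolerance, gave 14 lower members against the wild-type and 12 dependent members. The causes were not tested.

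Leaving out 1 array at a time gave 11 to 18 members higher and 5 to 9 lower in *oxt6* against the wild-type, 8 to 12 and 27 to 30 against the complemented plants, 27 to 33 and 6 to 7 between complemented and wild-type plants, and 4 to 8 dependent members, the 8 without *oxt6* replicate 1. Same-numbered wild-type and *oxt6* arrays deviated from their group means with correlations of 0.10, -0.21 and 0.13. Differently numbered pairs of these groups ran from -0.23 to 0.24. The labels give only the replicate number, and so few arrays cannot decide whether same-numbered samples were handled together. With the replicate number as a block, 16 members were higher and 7 lower in *oxt6* against the wild-type, 11 and 27 against the complemented plants, 31 and 7 between complemented and wild-type plants, and 6 were dependent. Members near the floor of 16 have no usable ratio, and 4 of the 56 were too dim to be tested.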
